A study of Mus musculus with 4 samples.

Results

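The 42 mitosis and spindle genes described here are a list of regulators, motors and structural proteins that a cell needs to enter mitosis, attach and separate its chromosomes and divide. They were chosen by name and found on the arrays through the accession of each probe, with the brightest probe standing for a gene. All 42 were found, among 45526 genes or unnamed transcripts on the array, and all 42 were well above background on each of 4 arrays. They entered the fit with 20512 genes or unnamed transcripts in all, of which 12916 had a gene symbol. Below, all 20512 are called genes tested.

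RNA came from naive CD4+ T cells, sorted as CD62L+CD44− cells from spleens of male C57BL/6 mice that were wild type or Irf4-/-. In both genotypes the cells had been stimulated with 1 µg per ml of an antibody to CD3e beside an equal number of mitomycin C-treated syngeneic antigen-presenting cells, at 1e+05 per well, and on day 2 the living CD4+ cells were re-sorted for RNA. Each genotype has 2 samples on 1 one-colour array each, from 2 independent experiments per the labels. One protocol text gives culture times below this; the titles' day 2 is used here. The age of the mice, whether animals were pooled and which part of Irf4 is deleted are not given in the sources used here, and nothing shows that the 2 samples of a genotype came from separate animals, so the errors measure the spread between these samples.

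A resting T cell leaves quiescence after its antigen receptor is engaged and starts to divide within days. Transcripts of mitotic genes are made mainly late in the cell cycle: the DREAM complex keeps the genes silent in resting cells, and MYBL2 with the MuvB core and FOXM1 switch them on in G2. Cyclin B with CDK1 then drives entry into mitosis, the spindle checkpoint holds chromosome separation back until every kinetochore is attached, and the anaphase-promoting complex destroys cyclin B and securin to let the chromosomes part. IRF4 is a transcription factor that T cells induce through their antigen receptor and that supports their clonal expansion. The comparison asks how transcript levels in newly activated helper T cells differ without it. An array reads RNA pooled over all cells of a sample, so fewer dividing cells and less mitotic RNA per dividing cell cannot be told apart.

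Levels are log2 signals relative to the 75th percentile of the array, and a difference is the knockout mean minus the wild-type mean on that log2 scale, with limma's moderated standard error (SE) and n = 2 arrays per genotype. All 4 arrays lay on 1 slide. Arrays numbered replicate 1 occupied row 1 of the slide and those numbered replicate 2 occupied row 2, so the difference within a row is also the difference within a replicate number. Wild type occupied slide column 1 and the knockout columns 3 and 2, so slide column and genotype cannot be told apart. Between 47.6% and 52.9% of the spots of an array were well above background. Irf4 itself read 5.03 and 4.74 on the wild-type arrays and 4.23 and 4.04 on the knockout arrays, a difference of -0.75 ± 0.20 (limma, adjusted p = 0.231). Without knowing which exons were deleted, nothing about the deletion can be checked from this signal.

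Most mitotic transcripts had a slightly lower mean on the knockout arrays than on the wild-type arrays, and no single gene of the list passed the test. Of 42 members 35 had a negative difference and 7 a positive one, with a median of -0.18 against -0.02 over all genes tested, of which 53.3% were negative. Differences ran from -0.42 for Mki67, a knockout level 1.34-fold lower, to 0.44 for Pttg1, a level 1.36-fold higher. None of the 42 passed an adjusted p of 0.05 in limma, where the background was 0.736% of all genes (0.244% lower and 0.492% higher). None reached an unadjusted p under 0.05, where the background was 5.01% lower and 6.36% higher. The smallest adjusted p was 0.453, that of Pttg1. Each of the 42 intervals at 95% confidence included 0, and each lay within a 2-fold change in either direction, the outermost bounds being -0.92 for Mki67 and 0.90 for Pttg1. At the members' median SE of 0.19 a difference had to reach 1.59, which is 3.02-fold, to be called. A difference of the size seen here was therefore below what this design calls, and missing the threshold does not show that the genotypes were alike.

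**Figure D1:**
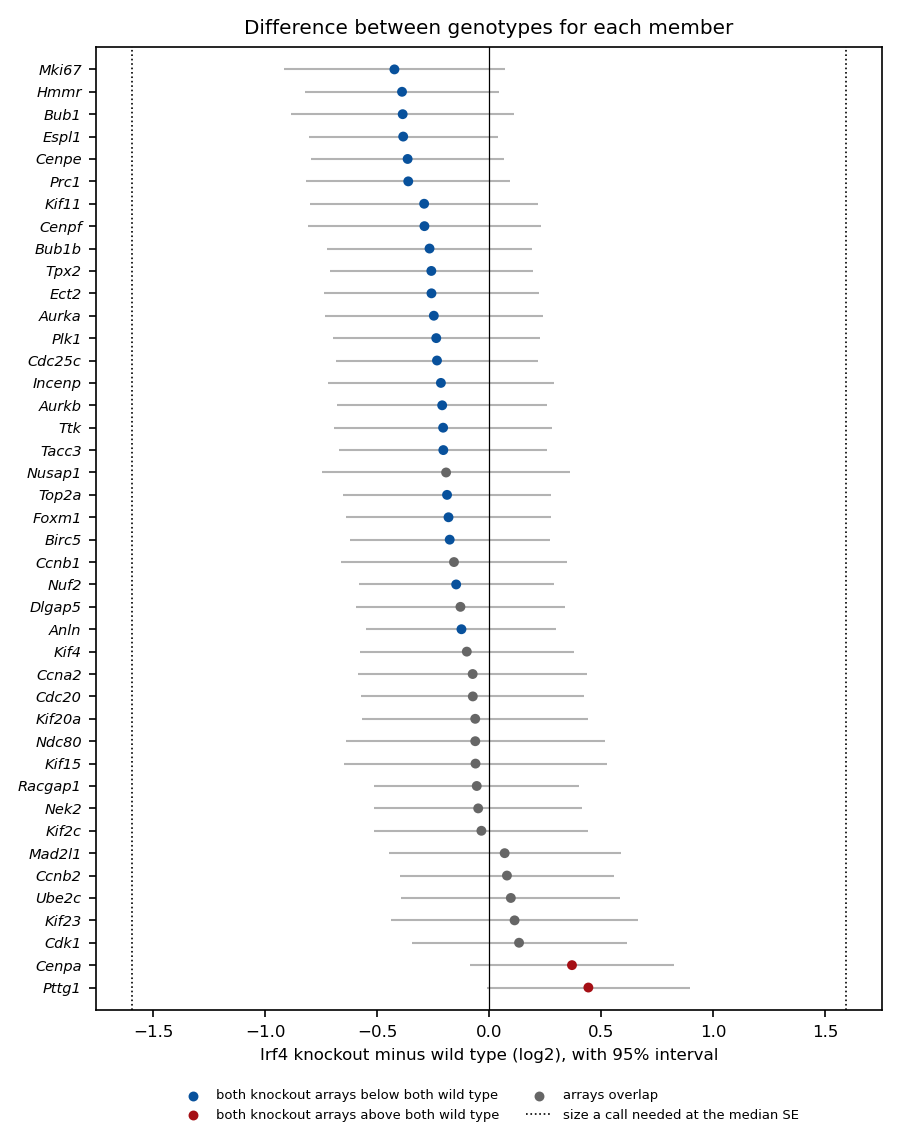
Difference between genotypes (Irf4 knockout minus wild type, log2, x axis) for each of the 42 members, with limma's 95% interval as a bar; n = 2 arrays per genotype. All 42 intervals cross 0 and stay well inside the dotted lines at 1.59, the size a call needed at the median SE; 23 members (blue) did not overlap and were lower in the knockout, and 2 (red) did not overlap and were higher.

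For 23 of 42 members the higher knockout array was still under the lower wild-type array, and this background was 21.3% of all genes tested. The reverse held for 2 members, Cenpa and Pttg1, where the background was 17.9%. The remaining 17 members overlapped between genotypes.

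On 1 array the members stood apart together. Wild-type replicate 1 had a higher level than wild-type replicate 2 for all 42 members, by 0.01 (Hmmr) to 0.39 (Ndc80) with a median gap of 0.24, while over all genes tested it was the higher for 53.8% with a median gap of 0.03. It was the highest of the 4 arrays for 37 of 42 members, against 27.5% of all genes tested. Expressed as the median over members of the level minus the gene's mean over 4 arrays, the wild-type arrays read 0.21 and -0.04 and the knockout arrays -0.11 and -0.08. Wild-type replicate 2 lay close to the knockout arrays, and wild-type replicate 1 lay apart. The gap between the 2 wild-type arrays was larger than the difference between genotypes for 26 of 42 members. The 75th percentile signal of wild-type replicate 1 was 338, against 297 to 306 on the other arrays, and its part in the gap was not tested. Knockout replicate 1 was above knockout replicate 2 for 16 members, with a median gap of -0.03. The wild-type gap held under other scalings, with replicate 1 above replicate 2 for 42 members after median centring, 41 after normexp correction and 35 after quantile normalization (median gaps 0.52, 0.26 and 0.13, against 0.32, 0.01 and 0.02 over all genes).

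**Figure D2:**
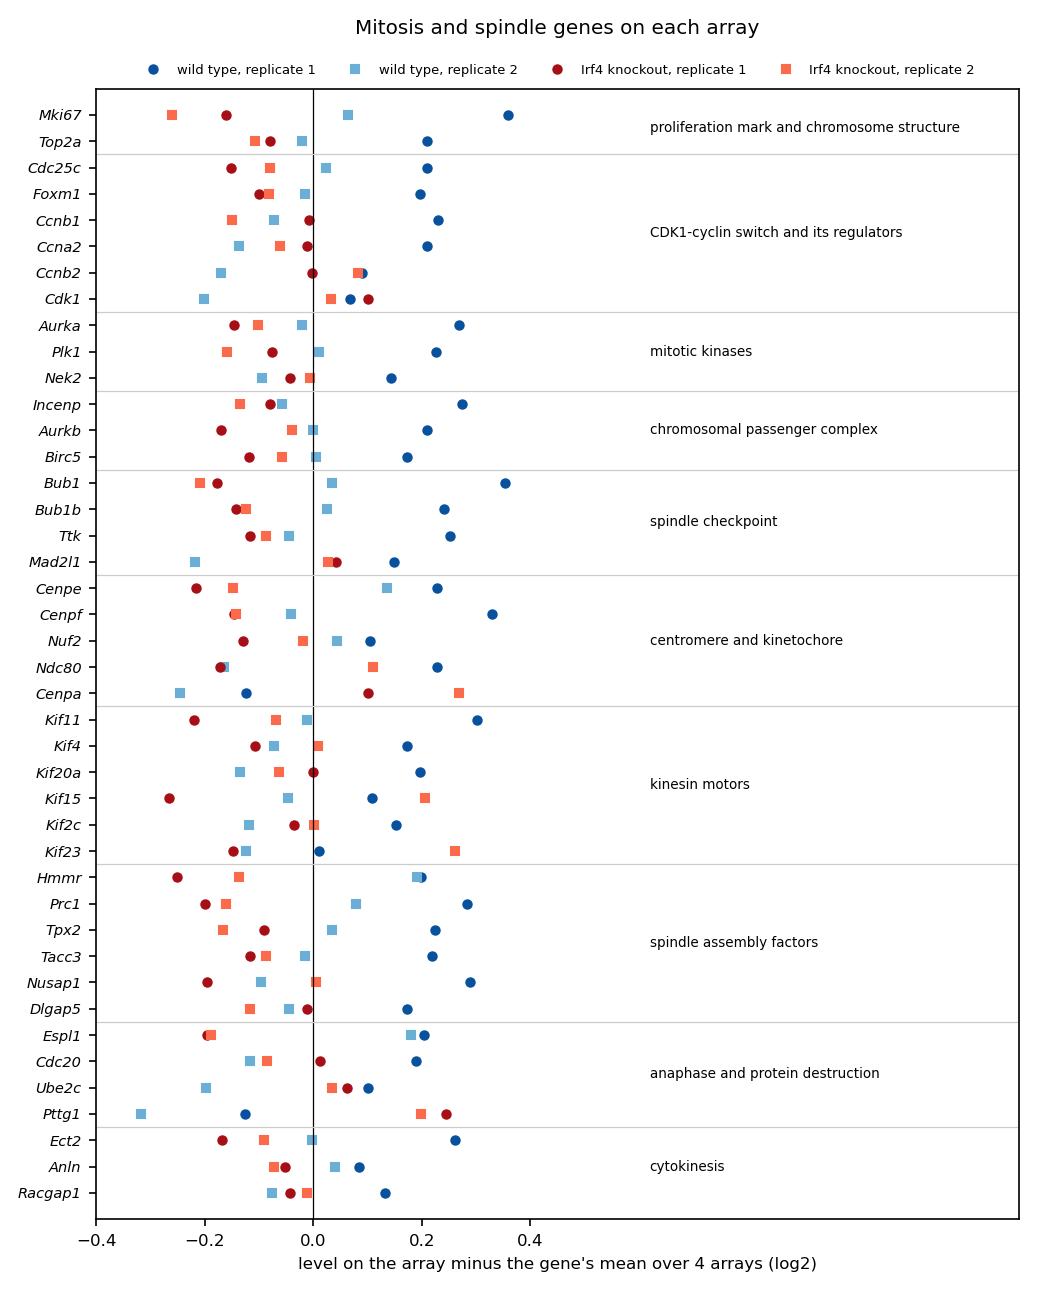
Level of each member on each of the 4 arrays, as its log2 level minus the gene's mean over the 4 arrays (x axis), grouped by role. Dark blue circles are wild-type replicate 1, which is the rightmost point in 37 of 42 rows; the other 3 arrays lie closer together.

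Within slide rows the list gave unequal differences. In row 1, 39 of 42 members were lower in the knockout, against 49.3% of all genes tested, with a median of -0.30. In row 2, 25 of 42 were lower, against 54.9% of all genes tested, with a median of -0.06. The medians over all genes tested were 0.01 and -0.04. The members lower in both rows numbered 25, against 6874 of all 20512 genes tested. Those higher in both numbered 3 (Cdk1, Cenpa and Pttg1), against 6008 of all genes tested. The other 14 members were lower in row 1 and higher in row 2. Leaving out wild-type replicate 1 gave a median over members of -0.07 with 25 of 42 negative. Leaving out wild-type replicate 2 gave -0.29 with 39 negative.

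**Figure D3:**
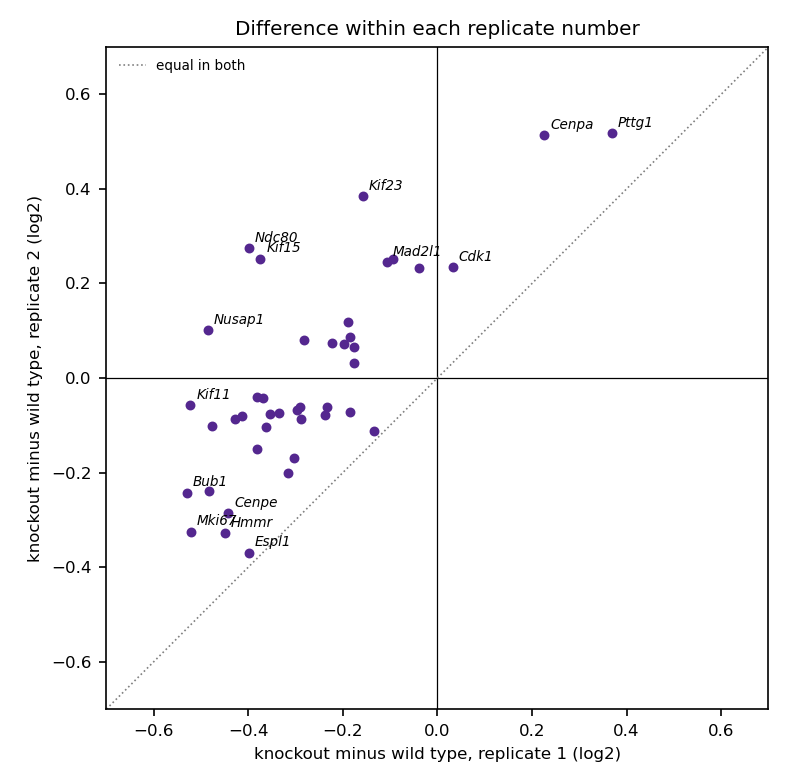
Difference between knockout and wild type (log2) within replicate number 1, which is slide row 1 (x axis), against that within replicate number 2, slide row 2 (y axis), for the 42 members. Points fall left of 0 on the x axis for 39 members but are split around 0 on the y axis, 25 below and 17 above.

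Late cell cycle genes are known for 2 promoter elements that the choice of members did not use: the cell cycle genes homology region (CHR), which the DREAM and MYBL2-MuvB complexes bind, and the CCAAT box, which NF-Y binds. Windows from 250 bases before to 50 after the start, taken from RefSeq (GRCm38.p6), existed for 34 of 42 members in 36 windows. CHR was searched as TTTGAA or TTTAAA and CCAAT as CCAAT, each on both strands, and no match of one can be a match of the other. CHR letters were found in 29 of 36 member windows (80.6%) and in 27.6% of all 32851 windows of the same length. CCAAT letters were in 26 member windows (72.2%) against 37.4%, and both kinds in 24 (66.7%) against 10.7%. A match is a description of letters and does not show that a factor binds. The bases before the start are shown for the 3 CHR-holding members of largest absolute difference among those not overlapping between genotypes, which are Mki67 (chr7:135716380-135716629, - strand), Hmmr (chr11:40733438-40733687, - strand) and Espl1 (chr15:102296043-102296292, + strand). Cdk1 (chr10:69352913-69353162, - strand) and Ccnb1 (chr13:100786487-100786736, - strand) are shown as the core of the mitotic switch. Sequences run 5′ to 3′ in the direction of the gene and capitals mark CHR and CCAAT letters on either strand; the CHR letters of Hmmr lie after the start, so the first 20 bases of its transcript (chr11:40733418-40733437, - strand) are added.
Mki67: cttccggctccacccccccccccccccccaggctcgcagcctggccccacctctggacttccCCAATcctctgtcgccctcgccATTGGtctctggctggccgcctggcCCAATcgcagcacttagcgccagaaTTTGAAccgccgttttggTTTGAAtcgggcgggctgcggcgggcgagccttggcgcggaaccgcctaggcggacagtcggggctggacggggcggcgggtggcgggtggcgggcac
Hmmr: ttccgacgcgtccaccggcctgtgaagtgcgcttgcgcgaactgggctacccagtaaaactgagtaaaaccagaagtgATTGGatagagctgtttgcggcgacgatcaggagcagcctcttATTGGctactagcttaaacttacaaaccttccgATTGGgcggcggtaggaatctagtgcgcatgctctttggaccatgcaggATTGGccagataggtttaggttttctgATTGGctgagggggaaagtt
Hmmr, first bases of the transcript: gaggtaaaTTTGAAttcagg
Espl1: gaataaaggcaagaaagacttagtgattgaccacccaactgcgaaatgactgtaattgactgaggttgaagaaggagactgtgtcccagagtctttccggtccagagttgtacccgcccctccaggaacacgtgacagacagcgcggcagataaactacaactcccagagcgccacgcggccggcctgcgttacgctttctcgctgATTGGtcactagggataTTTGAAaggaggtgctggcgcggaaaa
Cdk1: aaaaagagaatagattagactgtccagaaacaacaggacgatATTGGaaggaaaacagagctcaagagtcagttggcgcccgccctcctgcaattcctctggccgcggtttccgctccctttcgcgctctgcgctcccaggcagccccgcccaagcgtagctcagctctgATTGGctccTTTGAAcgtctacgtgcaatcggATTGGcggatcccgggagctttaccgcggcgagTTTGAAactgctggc
Ccnb1: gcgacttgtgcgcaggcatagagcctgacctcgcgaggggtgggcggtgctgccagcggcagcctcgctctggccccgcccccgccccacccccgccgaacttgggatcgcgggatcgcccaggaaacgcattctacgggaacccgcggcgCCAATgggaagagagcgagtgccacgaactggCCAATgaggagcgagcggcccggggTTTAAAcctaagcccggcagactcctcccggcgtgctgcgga

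In Cdk1 the CHR letters begin at -71 and -15 relative to the start and CCAAT letters at -208, -80 and -48. In Ccnb1 a TTTAAA begins at -42, after CCAAT letters at -99 and -67, and in Espl1 a TTTGAA at -27 follows CCAAT letters at -44. Mki67 holds TTTGAA at -116 and -98 with CCAAT letters at -188, -166 and -141, and Hmmr 5 CCAAT matches before a TTTGAA that begins at position 9. The median difference was -0.18 over the 27 members with CHR letters in a window, from -0.42 to 0.37, and -0.15 over the 7 without, from -0.39 to 0.44. Over the 8 members that had no window it was -0.20. Members at opposite ends of the difference, such as Mki67 and Cenpa, both hold CHR letters. Pttg1 and Bub1, also at opposite ends, hold none in this window. Whether CHR letters go with the difference was not tested.

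The proliferation mark and the chromosome structure enzyme both had lower knockout levels in both rows. Mki67 encodes Ki-67, which coats mitotic chromosomes and is the standard label of dividing cells, and its level was 6.07 and 5.77 on the wild-type arrays and 5.54 and 5.45 on the knockout arrays. The 2 genotypes did not overlap, and the difference of -0.42 ± 0.19 (limma, adjusted p = 0.531) was -0.52 and -0.32 in rows 1 and 2. Top2a, the topoisomerase that disentangles sister chromatids, read 5.74 and 5.51 on the wild-type arrays and 5.45 and 5.43 on the knockout arrays. The genotypes did not overlap, but the wild-type gap of 0.23 was larger than the difference of -0.19. A second Top2a probe gave -0.20, close to the -0.19 of the brightest.

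The CDK1-cyclin switch and its regulators had differences of both signs, with 4 of 6 negative, a median of -0.12 and none called. Cdk1, the kinase at the centre of mitotic entry, read 2.71 and 2.44 on the wild-type arrays and 2.74 and 2.67 on the knockout arrays. Its difference was positive at 0.13 ± 0.19 (limma, adjusted p = 0.929), and wild-type replicate 2 was the only array that stood below the others. The level of its partner Ccnb1, cyclin B1, was 4.79 and 4.49 on the wild-type arrays and 4.55 and 4.41 on the knockout arrays, and the genotypes overlapped. That difference of -0.16 was -0.24 and -0.08 in the 2 rows and near 0 (-0.0065) without wild-type replicate 1, and 2 other Ccnb1 probes gave -0.12 and -0.03. Ccnb2, the second mitotic B-type cyclin, differed by 0.08 (-0.03 after median centring) and Ccna2, cyclin A2, which acts from S phase into early mitosis, by -0.07.

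Cdc25c, the phosphatase that removes the inhibitory phosphates from CDK1, read 2.70 and 2.51 on the wild-type arrays and 2.33 and 2.41 on the knockout arrays. The genotypes did not overlap and the difference was -0.23 ± 0.18 (limma, adjusted p = 0.793). Foxm1, the transcription factor of the G2 programme, did not overlap either, with 2.51 and 2.29 in wild type and 2.21 and 2.23 in the knockout. Its difference was -0.18 for the brightest probe and -0.01 for a dimmer one.

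Mitotic kinases outside the switch were lower in row 1 for all 3. Aurka, Aurora A, which matures the spindle poles, had levels of 5.51 and 5.22 on the wild-type arrays and 5.10 and 5.14 on the knockout arrays. Plk1, Polo-like kinase 1, which acts at centrosomes, kinetochores and the midzone, read 5.93 and 5.71 in wild type and 5.62 and 5.54 in the knockout. Neither gene overlapped between genotypes, and the knockout was lower with differences of -0.25 and -0.24 and rows at -0.41 and -0.08 for Aurka and -0.30 and -0.17 for Plk1. Nek2, a kinase that separates centrosomes, read 1.18 and 0.95 on the wild-type arrays and 1.00 and 1.03 on the knockout arrays, a difference of -0.05 with overlapping arrays that became 0.07 without wild-type replicate 1.

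The chromosomal passenger complex corrects faulty attachments and guides cytokinesis. All 3 of its genes were lower on each knockout array than on either wild-type array, where the background was 21.3% of all genes tested. Aurkb, its kinase Aurora B, read 2.61 and 2.40 on the wild-type arrays and 2.23 and 2.36 on the knockout arrays. The scaffold gene Incenp read 6.53 and 6.20 in wild type and 6.18 and 6.12 in the knockout. Birc5, survivin, which docks the complex on the centromere, read 7.06 and 6.89 and 6.77 and 6.83 in the same order. The 3 differences were close to each other at -0.21, -0.22 and -0.18, and their row 2 values were all near 0 (-0.04, -0.08 and -0.06). Second probes of Incenp and Birc5 gave -0.21 and -0.19. The second Aurkb probe had no value on knockout replicate 1 and gave -0.0075 in row 2.

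Among spindle checkpoint genes, the kinase gene Bub1 differed most. Its level was 2.84 and 2.52 on the wild-type arrays and 2.31 and 2.28 on the knockout arrays, a difference of -0.39 ± 0.19 (limma, adjusted p = 0.588) with no overlap and -0.53 and -0.24 in the 2 rows. Bub1b, which encodes BUBR1, part of the inhibitor of the anaphase-promoting complex, read 2.28 and 2.07 on the wild-type arrays and 1.90 and 1.92 on the knockout arrays. It too did not overlap and differed by -0.27. Ttk, the MPS1 kinase that starts checkpoint signalling, differed by -0.21, and Mad2l1, MAD2, the protein that holds CDC20 in check, by 0.07 with opposite signs in the rows (-0.11 and 0.25) and by -0.04 after median centring.

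Centromere and kinetochore genes split. Cenpe, the kinesin that carries chromosomes to the spindle equator, read 4.65 and 4.56 on the wild-type arrays and 4.21 and 4.28 on the knockout arrays, and the difference of -0.36 ± 0.17 (limma, adjusted p = 0.543) was -0.44 and -0.29 by row. Cenpa, the histone H3 variant that marks the centromere, went the other way, with 4.14 and 4.02 on the wild-type arrays and 4.37 and 4.53 on the knockout arrays. The knockout level of Cenpa was higher in both rows (0.23 and 0.51), a difference of 0.37 ± 0.18 (limma, adjusted p = 0.561). Over the 14 alternatives the Cenpa difference ran from 0.26 to 0.45. Several of them, such as trended and robust variance or the replicate block, cannot change a difference. Cenpf, a kinetochore and nuclear matrix protein gene, differed by -0.29, and Nuf2 and Ndc80, both parts of the complex that grips microtubules, by -0.15 and -0.06. Ndc80 showed the largest gap between the wild-type arrays, and its row differences were -0.40 and 0.27.

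The 6 genes grouped as kinesin motors, which leave out Cenpe, differed between rows: all 6 were lower in the knockout in row 1 and 1 of 6, Kif11, in row 2. Kif11, Eg5, which pushes the spindle poles apart, read 1.70 and 1.38 on the wild-type arrays and 1.17 and 1.32 on the knockout arrays, a difference of -0.29 with -0.52 and -0.06 by row. Kif23, the motor of the centralspindlin complex, read 1.23 and 1.10 on the wild-type arrays and 1.07 and 1.48 on the knockout arrays. Its knockout arrays lay on both sides of the wild-type arrays, the difference was 0.11, and a second probe gave -0.12. Kif4, Kif20a, Kif15 and Kif2c differed by -0.10, -0.06, -0.06 and -0.03, all with overlapping arrays; Kif2c read 0.03 after normexp correction. The 2 dimmer Kif15 probes gave -0.31 and -0.38, so probes of this gene disagreed in size.

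Spindle assembly factors had 6 of 6 differences negative, a median of -0.23 and no gene called. Hmmr, a microtubule-binding protein gene of the spindle poles, read 3.05 and 3.04 on the wild-type arrays and 2.60 and 2.71 on the knockout arrays. On this probe the wild-type arrays were nearly equal, unlike those of most members, and the difference of -0.39 ± 0.17 (limma, adjusted p = 0.503) was -0.45 and -0.33 by row, and the 2 other Hmmr probes gave -0.41 and -0.46. Those probes did separate the wild-type arrays, for instance at 1.44 and 1.12. Prc1, which bundles the microtubules of the central spindle, read 4.56 and 4.36 on the wild-type arrays and 4.08 and 4.12 on the knockout arrays. The difference was -0.36 on the brightest probe and -0.17 on a second one. Tpx2, the activator of Aurora A on the spindle, differed by -0.26, the pole protein gene Tacc3 by -0.20, Nusap1 by -0.19 and Dlgap5 by -0.13. Only Nusap1 of these 6 was higher in the knockout in row 2 (0.10).

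Genes of anaphase differed in sign, with a median of 0.01 over 4 genes. Espl1, separase, the protease that cuts the cohesin ring, read 2.29 and 2.27 on the wild-type arrays and 1.89 and 1.90 on the knockout arrays. Its replicates were close together in each genotype, the difference was -0.38 ± 0.16 (limma, adjusted p = 0.497), and the rows gave -0.40 and -0.37. Pttg1, securin, the inhibitor that binds separase until anaphase, read 4.02 and 3.82 on the wild-type arrays and 4.39 and 4.34 on the knockout arrays. The difference of 0.44 ± 0.18 (limma, adjusted p = 0.453) was 0.37 and 0.52 by row, and neither it nor that of Espl1 passed. A second, much dimmer Pttg1 probe gave 0.05, with 0.37 in row 1 and -0.27 in row 2, so the higher level rests on 1 probe. Cdc20, the activator of the anaphase-promoting complex, differed by -0.07 and Ube2c, its ubiquitin-conjugating enzyme, by 0.10 (-0.01 after median centring).

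The cytokinesis genes had small negative differences. Ect2, the exchange factor that activates RhoA at the cleavage site, read 3.03 and 2.77 on the wild-type arrays and 2.60 and 2.68 on the knockout arrays, a difference of -0.26 without overlap. Anln, anillin, the scaffold of the contractile ring, read 1.56 and 1.52 on the wild-type arrays and 1.42 and 1.40 on the knockout arrays and did not overlap, and its difference was -0.12. Racgap1, the partner of Kif23 in centralspindlin, read 4.73 and 4.52 on the wild-type arrays and 4.55 and 4.58 on the knockout arrays. Its arrays overlapped, and the difference was -0.06 on the brightest probe and 0.17 on a second.

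Several probes above background on every array existed for 19 members. For 16 of these all probes had the same sign, and for Kif23, Kif2c and Racgap1 they differed in sign. The median range between probes of 1 gene was 0.12, and the largest was 0.39, for Pttg1. Probes of 1 gene share the RNA of each sample, so their likeness says nothing about the spread between samples.

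Other genes of mitosis, listed by function, gave no calls either. Over 146 tested genes of 5 further lists, differences ran from -0.98 (Cdc25b) to 0.74 (Plk2, named after its value was seen; limma, adjusted p = 0.38). Of these, 118 were negative, against 53.3% of all genes tested, with a median of -0.13 (-0.23 and -0.05 in rows 1 and 2). The number called by limma was 0, where the background was 0.736% of all genes. An unadjusted p under 0.05 was reached by 5 (4 lower and 1 higher), where the background was 5.01% lower and 6.36% higher. Condensin and cohesin genes, whose products fold and hold chromosomes, had 20 of 21 negative and a median of -0.23; the largest differences were those of Esco2 (-0.39) and Ncapg2 (-0.38). Other kinetochore genes had 30 of 39 negative and a median of -0.11, led by Cenpu (-0.55) and Hjurp (-0.48), the chaperone that loads CENP-A. Other spindle, centrosome and motor genes had 39 of 46 negative (median -0.16), led by Haus8 (-0.46) and Kif14 (-0.45). Subunits and partners of the anaphase-promoting complex had 11 of 17 negative (median -0.06), with Anapc1 at -0.34 and Anapc13 at 0.26.

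Larger differences stood outside the 42 members, again without passing. Among 23 other CDK1 and G2/M control genes, Cdc25b, a second CDK1-activating phosphatase, read 1.23 and 1.49 on the wild-type arrays and 0.18 and 0.59 on the knockout arrays, a difference of -0.98 ± 0.23 (limma, adjusted p = 0.181). Plk3, a stress-responsive Polo-like kinase, differed by -0.81 ± 0.18 (limma, adjusted p = 0.167). Among 26 regulators of mitotic gene transcription, Mybl1, a relative of MYBL2, read -1.92 and -1.83 on the wild-type arrays and -3.00 and -2.93 on the knockout arrays, a difference of -1.09 ± 0.17 (limma, adjusted p = 0.0789) that was nearly equal in the 2 rows. Cdkn1a, the p21 inhibitor of cyclin-dependent kinases, differed by -0.92 (limma, adjusted p = 0.338), and its wild-type arrays lay apart (2.40 and 3.14). For comparison, 32 of 37 genes of G1/S and DNA replication were negative, against 53.3% of all genes tested. Their median was -0.21, with -0.27 and -0.15 by row. Wild-type replicate 1 was the highest array for 33 of them, against 27.5% of all genes tested. Knockout replicate 1 was above knockout replicate 2 for 35 of them, with a median gap of 0.21. This held for 16 of the 42 members and 12043 of all 20512 genes tested. The cyclin E genes Ccne2, above background on 3 arrays, and Ccne1 differed most in that list, by -1.38 (limma, adjusted p = 0.0811) and -0.48. Whether the lists differ from each other was not tested.

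**Figure D4:**
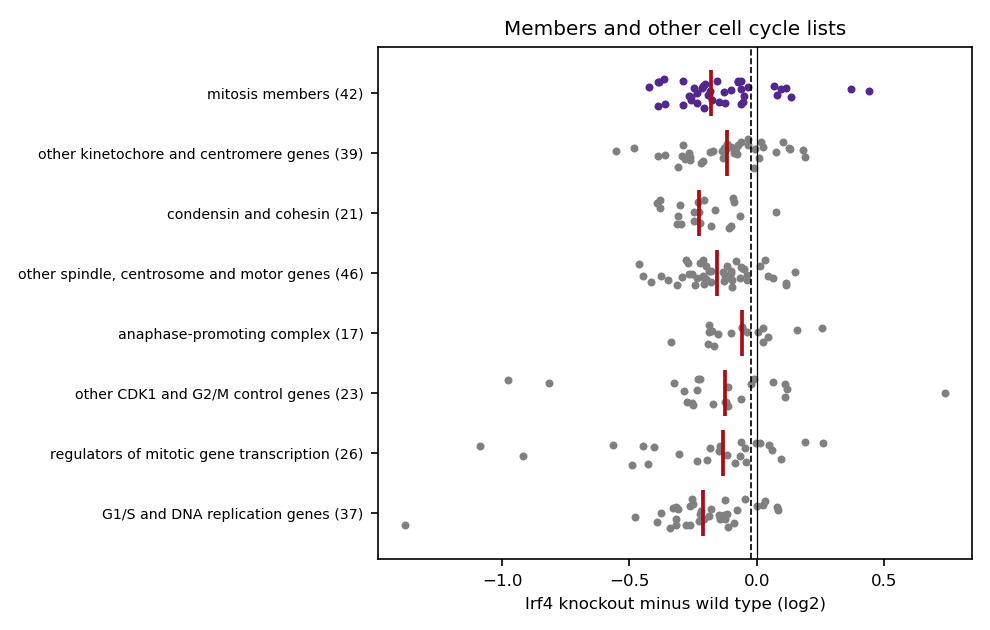
Difference between genotypes (log2, x axis) for each tested gene of the members (purple) and of 7 other cell cycle lists (grey), with the number of genes tested in brackets, the median of each list as a red line and that of all genes tested (-0.02) as a dashed line. List medians lie between -0.23 and -0.06, and the few genes past -0.8 belong to lists other than the members.

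The median over members was negative under each of 14 alternatives, from -0.29 when wild-type replicate 2 was left out to -0.07 when wild-type replicate 1 was, and below the median over all genes tested under the same setting. Changed filters on dim probes, trended and robust variance and the replicate block cannot move the members' differences, so the median stayed at -0.18 there. Median centring moved the median over all genes from -0.02 to -0.13 and that over members to -0.29, so that the distance between them was -0.16 under both scalings. No member was called where it was tested under these settings, which was all 42 members in each but the leaving out of local background flags (39, without Aurka, Bub1b and Pttg1). The smallest adjusted p of any member was 0.189 (Pttg1), with limma's trended and robust variance.

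**Figure D5:**
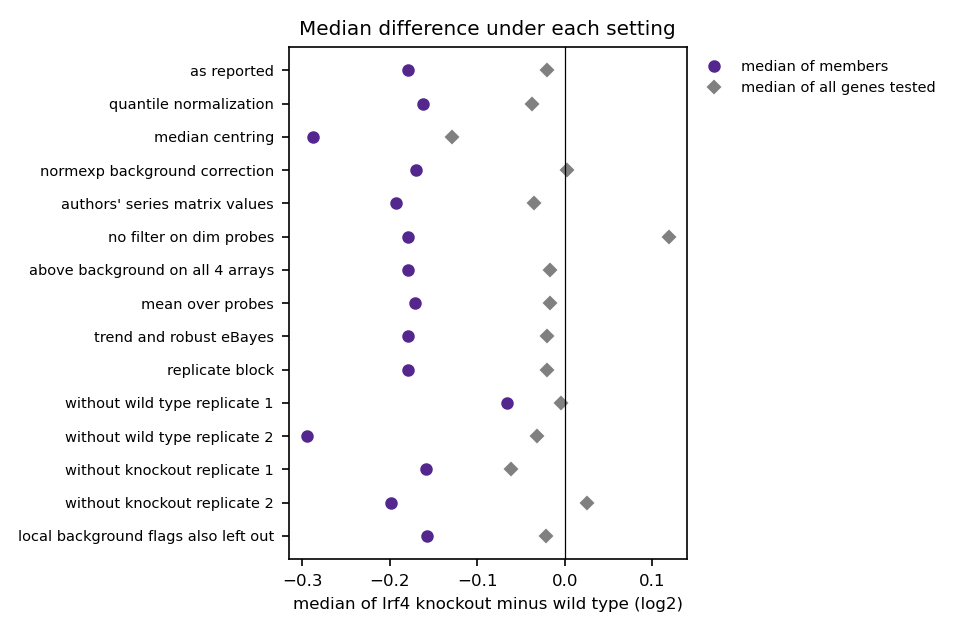
Median difference between genotypes (log2, x axis) over the members (purple circles) and over all genes tested (grey diamonds) as reported and under 14 alternatives (rows). The circles run from -0.29 to -0.07, both reached by leaving out 1 wild-type array, and lie left of the diamond of the same row throughout.

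Marker genes of other cells were read beside these values. All 10 T cell markers were above background on every array, with summed signals (in units of the 75th percentile) of 1425 to 1561 in wild type and 1457 to 1526 in the knockout. The summed signal of 10 B cell markers was 2.66 to 4.87 in wild type and 9.45 to 15.1 in the knockout, with 8 of 10 above background on every array, and Fcrla on none. Pou2af1, which activated T cells can also express, read 0.84 and -0.06 on the wild-type arrays and 3.03 and 2.68 on the knockout arrays. Myeloid markers summed to 11.8 to 12.7 in wild type and 10.4 to 11.2 in the knockout, with 3 of 11 above background on every array and Lyz2, Adgre1, Itgax, Fcgr1 and C1qc on none. Erythroid markers summed to 0.66 to 0.73 and 0.71 to 1.48, with 3 of 6 above background on every array and others, such as Alas2 and Hbb-b1, on none. NK cell markers summed to 3.01 to 4.11 and 4.70 to 4.97, with Ncr1 on none and Klrb1c above background on only 2 arrays. The other NK markers went in opposite directions. Klrd1 read -0.73 and 0.37 in wild type and 1.52 and 1.86 in the knockout. Klrk1 read 1.23 and 1.48 in wild type and 0.82 and 0.40 in the knockout. The CD8 pair summed to 8.77 to 9.29 in wild type and 4.45 to 4.76 in the knockout. Nearly all of the CD8 sum came from Cd8b1 (3.12 and 3.21 in wild type, 2.23 and 2.14 in the knockout). Cd8a was above background on only 2 arrays. Plasma cell markers summed to 0.0762 to 0.0907 over the 4 arrays, with Jchain and Tnfrsf17 on none. The part of these signals in the values of the mitotic genes was not tested.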

How the data were processed

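RNA of 2 wild-type and 2 Irf4-/- samples was measured on 4 one-colour Agilent arrays. The deposited scanner tables hold intensity per spot, already background-subtracted by Feature Extraction 11.0.1.1 per the file headers (9.1 in the submitters' processing notes). The deposited series matrix holds log2 values, which the values themselves show to be centred per probe (column medians -0.17, 0.10, -0.11 and 0.12). Their differences between arrays matched the scaled scanner values up to a shift of at most 0.03 per array, and they served as an alternative.

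Processed signals were scaled to each array's 75th percentile before log2. Control spots, feature outliers and manual flags were left out, which removed 137 probes. Of 56605 probes, 32994 were matched by accession to 22911 symbols in the RefSeq table (GRCm38.p6). The brightest probe stood for a gene, and a gene was tested where it stood well above background on each array of either genotype or both. The members and gene lists were chosen with earlier results of these data known, and every member is accounted for by role. Values on every array are given for Mki67, Top2a, Cdk1, Ccnb1 and the 2 members of each role with the largest absolute difference (all members in roles of 3 or fewer), and the 2 largest differences for each other list. limma 3.58.1 (R 4.3.3) fitted genotype, with Benjamini-Hochberg adjustment over all 20512 genes and a threshold of 0.05, and was tested on simulated data. Alternatives were quantile normalization, median centring, normexp, the series matrix, other filters, the mean over probes, trended and robust variance, the replicate block and each array left out. The normexp alternative used median spot signals instead of means. Leaving out local background flags was added after seeing the data. The small number of arrays limits the precision.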

Additional observations from a re-analysis of the deposited data

How the results depend on the processing

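No member was called where tested (42, or 39 with local background flags left out). An unadjusted p under 0.05 was reached by 0 to 8 members: 8 with trended and robust variance (2580 of 20512 genes), 7 with normexp (2397 genes) and 4 with the replicate block (3193 genes), against 0 as reported (2332 genes). Over all genes limma called 151 (101 higher, 50 lower). The number was 1 with quantile normalization (0 higher, 1 lower), 1043 with median centring (595 higher, 448 lower), 757 with normexp (458 higher, 299 lower), 260 with the series matrix values (179 higher, 81 lower) and 797 with trended and robust variance (486 higher, 311 lower). It was 0 with no filter on dim probes (2099 at an unadjusted p under 0.05). With the replicate block, which is also the slide row, the count was 0 (3193 unadjusted) and no member changed its call. Deviations of same-numbered arrays correlated at 0.35 across genes, which are not independent, and 2 pairs do not show whether the numbers pair the samples. Leaving out 1 array gave 0 to 487 calls: 0 without wild-type replicate 1 (1864 unadjusted), 0 without wild-type replicate 2 (1678 unadjusted), 487 without knockout replicate 1 and 208 without knockout replicate 2. With 1 array left out, members lower without overlap numbered 23 to 37: 23 without wild-type replicate 1 (34.6% of all genes), 37 without wild-type replicate 2 (37.4%), 25 without knockout replicate 1 (43.0%) and 28 without knockout replicate 2 (33.1%), against 23 (21.3%) as reported. Members higher without overlap numbered 12 without wild-type replicate 1 (34.1% of all genes), against 2 (17.9%). With the mean over probes Kif23 read -0.0025, Racgap1 0.059 and Kif2c 0.097. With 1 array left out, Nek2 ran from -0.17 to 0.069 and Racgap1 from -0.16 to 0.049 (positive without wild-type replicate 1). Cdk1 ran from -0.0016 (without wild-type replicate 2) to 0.27, and Kif23 from -0.091 (without knockout replicate 2) to 0.32. Without wild-type replicate 1, Ccna2 (0.10), Cdc20 (0.080), Kif20a (0.10), Ndc80 (0.13), Kif2c (0.10), Kif4 (0.023), Kif15 (0.017) and Nusap1 (0.0007) also turned positive. Mad2l1 (-0.11), Ccnb2 (-0.051) and Ube2c (-0.052) turned negative without wild-type replicate 2. Kif15 (0.18) and Ndc80 (0.078) turned positive without knockout replicate 1. Irf4 passed with normexp (-0.72, adjusted p = 0.0271) and with trended and robust variance (adjusted p = 0.0258). The cause was not tested. Every member was well above background on each array.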
